A study of Homo sapiens with 6 samples.

Results

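The U2-like entries miR-1246 and miR-1290, and both arms of miR-4695, a neighbour of miR-1290, were followed across 6 small-RNA libraries of HCT116 exosomes. The sequences of the first pair resemble the U2 small nuclear RNA, and the hairpin of miR-4695 lies in the same host gene as that of miR-1290. Rows were taken by their exact names, which gave 4 of the 2588 entries listed in each deposited table. miR-4695-3p was selected on its measured levels in these same libraries, because they were lower in siPRDX3, so its difference between the groups is a description and carries no test. HCT116 is an established human colorectal carcinoma line. One group received an siRNA against PRDX3 (siPRDX3, 3 libraries), which encodes a mitochondrial peroxiredoxin, and the other a control siRNA (siCTL, 3 libraries), in both cases by microporation for 40 h. All cells then spent 24 h in medium with nanoparticle-depleted serum before exosomes were isolated with a commercial kit. A single cell line was used, and separate cultures are not stated for the replicates, so the p-values given here rest on library-to-library spread alone, and that spread may be technical. The last sentence of the series' design text names another siRNA and endothelial cells, against the sample titles and cell line entries, which were followed.

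A miRNA guides Argonaute proteins to messenger RNAs mainly through its seed, the bases near its 5′ end. Most miRNAs are cut from long hairpins, first in the nucleus and then in the cytoplasm, whereas a few come from short introns that splicing releases as ready-made hairpins. U2 is an abundant RNA of the spliceosome, and fragments of it can be read as miR-1246 or miR-1290 in small-RNA sequencing. miR-1246 and miR-1290 are both often reported as abundant in exosomes and serum of patients with carcinoma.

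The mature sequences are shown because the 4 entries differ in what a short read could match. They are from RefSeq on GRCh38.p14, written 5′ to 3′, with the seed (bases 2 to 8) in capitals.
hsa-miR-1246: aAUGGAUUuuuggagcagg
hsa-miR-1290: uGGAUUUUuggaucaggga
hsa-miR-4695-3p: uGAUCUCAccgcugccuccuuc
hsa-miR-4695-5p: cAGGAGGCagugggcgagcagg
The 4 seeds are all different, and no other mature sequence of the RefSeq table, which covers 2281 of the 2588 entries, carries any of them. miR-1246 and miR-1290 nevertheless share most of their bases. Shifted by 2 bases, they are identical at 16 of 17 aligned positions, with a longest common run of 12 bases and the single difference U13G (miR-1290 first, counted from its 5′ end).

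The next lines show the stretch of U2 that both resemble, bases 88 to 120 of the 191-base RNA, with the bases that align to miR-1246 in capitals. The sequence is that of the GENCODE transcripts on GRCh38, written as RNA.
RNU2-1: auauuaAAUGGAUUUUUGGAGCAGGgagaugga
RNU2-2P: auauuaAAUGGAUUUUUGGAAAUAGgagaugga
The first lies at chr17:43233858-43233890 and the second at chr11:62841690-62841722, both on the minus strand. miR-1246 matched RNU2-1 without a mismatch over its 19 bases, at U2 positions 94 to 112. miR-1290 matched positions 96 to 114 at 18 of 19 bases, with U13G as the only substitution. Against RNU2-2P both differed at 4 bases, G15A, C16A, A17U and G18A for miR-1246. The aligned stretch includes the uridine-rich site on which the Sm protein ring of the snRNA assembles. Among all 206694 GENCODE transcripts, searched on the sense strand, the sequence of miR-1246 occurred exactly in 8 snRNA genes besides its own hairpin. That of miR-1290 occurred exactly in its own hairpin alone, and with 1 mismatch in 12 snRNA genes and 1 other gene. Neither arm of miR-4695 occurred outside its hairpin, even with 1 mismatch. How the authors divided reads with several matches is not given in the sources used here, so reads of miR-1246 and U2 fragments of the same sequence cannot be told apart, and the split of reads between miR-1246 and miR-1290 is uncertain.

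The hairpin of miR-1246 lies on chromosome 2 (176600980 to 176601052, minus strand) and overlaps no other annotated gene. Those of miR-1290 (18897071 to 18897148) and miR-4695 (18883202 to 18883275) lie on the minus strand of chromosome 1, inside ALDH4A1, which encodes a mitochondrial enzyme of proline breakdown, with 13795 bases between them. Both are intronic, touch no annotated exon of ALDH4A1 in any transcript, and also lie within the overlapping gene AL080251.1. They sit in introns of very different kinds. miR-1290 lies 5313 bases downstream of one exon and 6179 bases upstream of the next, in a gap of 11570 bases. The miR-4695 hairpin has 74 bases and the intron that holds it has 80, with 3 bases left on either side. Its sequence is shown to place both arms, with the 3p product in capitals.
MIR4695: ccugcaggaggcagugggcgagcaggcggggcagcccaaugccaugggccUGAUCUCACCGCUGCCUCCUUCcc
The 3p product runs from base 51 to base 72 and the 5p product from base 5 to base 26. RNAfold gave the hairpin a minimum free energy of -42.90 kcal/mol, with 17 of the 22 bases of the 3p product and 19 of the 22 bases of the 5p product paired.

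**Figure D1:**
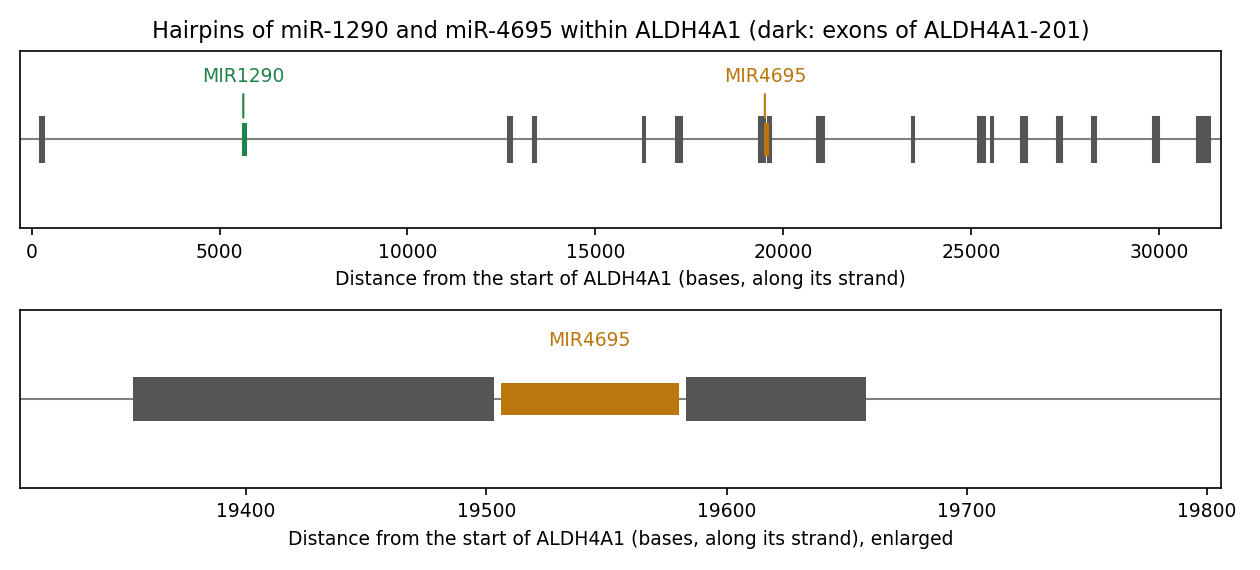
Position of the miR-1290 and miR-4695 hairpins (coloured) along ALDH4A1, in bases from the start of the gene along its strand, with the exons of a single ALDH4A1 transcript as dark boxes. The lower map enlarges the 80-base intron that the 74-base MIR4695 hairpin nearly fills, whereas MIR1290 lies in an 11570-base gap between exons, counted over all transcripts.

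The libraries were shallow and differed in composition. The deposited values are log2(x + 1), where x lies on whole multiples of the worth of a single read, so reads could be recovered. Totals ran from 70678 to 230946 miRNA reads in siPRDX3 and from 40146 to 124735 in siCTL. The authors' scaled values x did not sum to a common total. Their sums ran from 474714 to 686860 in siPRDX3 libraries and from 994749 to 1616280 in siCTL libraries. Of 80 miRNAs with enough reads to be tested, siCTL 1 had no read for 30 and siCTL 2 none for 23, against 0 to 8 in the other 4 libraries. miR-4451 took 11.8% to 47.7% of siPRDX3 reads and 16.4% to 76.9% of siCTL reads. Epithelial and intestinal markers, which check the labelled colon carcinoma line, had reads for 7 of 8 members, with miR-429 at 0, but took only 0.0114% to 0.304% of siPRDX3 reads and 0.00494% to 1.16% of siCTL reads. The liver markers, both with reads, took 2.44% to 9.63% in siPRDX3 and 0.0593% to 5.35% in siCTL, and the leukocyte, endothelial and muscle lists at most 0.406% in any library. PRDX3 mRNA is not seen by this assay, so the knockdown was not checked. In bulk exosomal RNA, fewer vesicles that carry a miRNA, fewer cells that release it and fewer copies in each cannot be told apart.

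miR-1246 was present in every library, without a separation of the groups. It had 3496, 253 and 452 reads in siPRDX3 1, 2 and 3, against 45, 514 and 838 in siCTL 1, 2 and 3. As shares of the library these were 1.51%, 0.262% and 0.640% in siPRDX3 and 0.112%, 0.635% and 0.672% in siCTL. The highest share was in siPRDX3 1 and the lowest in siCTL 1, and the groups overlapped. Across the 6 libraries the share varied 13.5-fold. On the authors' log2 scale miR-1246 averaged 11.91 ± 1.30 in siPRDX3 and 12.06 ± 1.69 in siCTL (SD, n = 3 each). The difference was -0.15 on the log2 scale, with SE 1.37 (limma, Benjamini-Hochberg adjusted p = 0.927 over 80 miRNAs). This size was far below the spread between libraries, and its sign depended on the scaling: the log2 fold change was 0.80 under library totals and -0.89 with upper-quartile factors.

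miR-1290 was among the 20 most abundant entries of all 6 libraries. It had 3547, 1406 and 504 reads in siPRDX3 1, 2 and 3, against 2186, 826 and 1470 in siCTL 1, 2 and 3. Its log2 levels on the authors' scale were 13.37, 13.28 and 11.73 in siPRDX3 and 15.74, 14.01 and 13.52 in siCTL. On that scale every siPRDX3 library lay below every siCTL library, as it did for 8.75% of the tested miRNAs. The summed scaled values of whole libraries were likewise lower in every siPRDX3 library. As shares of reads the groups overlapped, with 1.54%, 1.45% and 0.713% in siPRDX3 and 5.45%, 1.02% and 1.18% in siCTL. The one library that stood out was siCTL 1, where miR-1290 ranked 4 of all entries and took 3.55 times its highest share in the other libraries. The log2 fold change was -1.63 with SE 1.01 (limma adjusted p = 0.538), from means of 12.79 ± 0.92 in siPRDX3 and 14.42 ± 1.17 in siCTL (SD, n = 3 each). It was -0.68 under library totals and -0.35 in limma-voom, and -0.97 without siCTL 1 on the authors' scale. Without siCTL 1 and siCTL 2, which lacked reads for many miRNAs, it was -0.73, and that of miR-1246 was -0.80.

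Over all miRNAs, 0 of 80 passed an adjusted p of 0.05 by limma (a background of 0%), with 6 at an unadjusted p under 0.05, so neither miR-1246 nor miR-1290 was called. limma-voom called 1 miRNA (1.25%), miR-1260b, which passed the filter through its siPRDX3 reads alone, so nothing is read from that call. Without siCTL 3, 20 miRNAs passed (25%), and miR-1246 and miR-1290 were not among them, with limma adjusted p-values of 0.924 and 0.1995. Without siCTL 1 and siCTL 2, 0 passed (0%). The median fold change of the tested miRNAs was 1.72 on the log2 scale under the authors' scaling and 2.57 under library totals. Relative to that median miR-1246 lay at -1.87 and -1.77, and miR-1290 at -3.35 and -3.25. Without siCTL 1 and siCTL 2, the libraries with the most tested miRNAs at 0, the median was -1.15, and both entries lay slightly above it, by 0.35 for miR-1246 and 0.42 for miR-1290.

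The sum of erythrocyte miRNAs, which are abundant in red blood cells and in serum, was lower in siPRDX3 as a share of reads. Of 5 listed erythrocyte markers 4 had reads, with miR-144-3p at 0. Their summed share was 1.09% to 3.54% in siPRDX3 libraries and 4.15% to 5.58% in siCTL libraries, without overlap. Of single tested miRNAs, 2.5% (2 of 80) had every siPRDX3 library below every siCTL library by share. These were miR-4695-3p, selected for its low siPRDX3 levels, and miR-486-5p, so the 2.5% is no separate background for the sum. miR-486-5p had the most reads of the erythrocyte markers in every library, and of these markers it alone separated the groups by share. The shares of miR-451a, miR-486-3p and miR-144-5p overlapped between the groups. The part of the erythrocyte markers in the levels of miR-1290 was not tested.

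**Figure D2:**
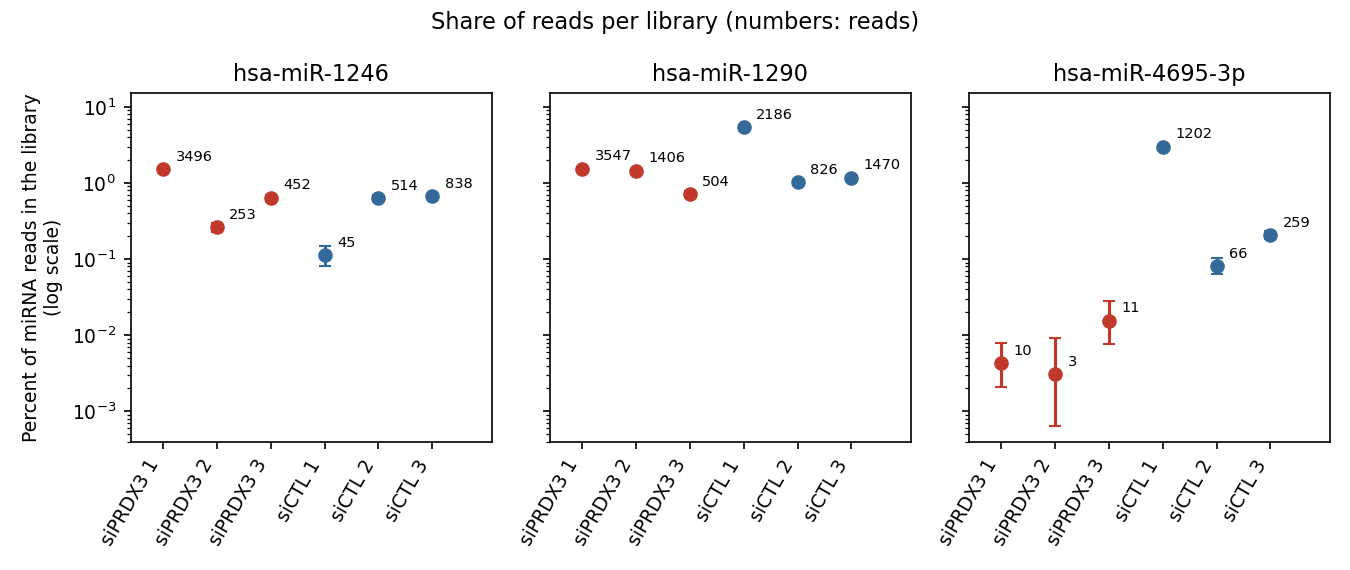
Percent of miRNA reads taken by miR-1246, miR-1290 and miR-4695-3p in each library, on a log axis, with 95% Clopper-Pearson intervals and the number of reads beside each point; siPRDX3 libraries are red and siCTL libraries blue. Groups overlap for miR-1246 and miR-1290, while the 3 siPRDX3 libraries of miR-4695-3p hold 3 to 11 reads and the siCTL libraries 66 to 1202. miR-4695-5p, at 0 in all libraries, is not drawn.

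The U2-like entries kept no fixed ratio. miR-1290 had more reads than miR-1246 in all 6 libraries, but by very different factors. The ratio of miR-1290 to miR-1246 reads was 1.01, 5.56 and 1.12 in siPRDX3 1, 2 and 3, and 48.6, 1.61 and 1.75 in siCTL 1, 2 and 3. In siPRDX3 1 and siPRDX3 3 the entries were equal within counting error, as miR-1246 made up 49.6% (95% Clopper-Pearson interval 48.5 to 50.8) and 47.3% (44.1 to 50.5) of their joint reads. In siPRDX3 2 it made up 15.3% (13.6 to 17.1). It made up 2.02% (1.47 to 2.69) of the joint reads in siCTL 1, and 38.4% (35.7 to 41.0) and 36.3% (34.3 to 38.3) in siCTL 2 and siCTL 3. The log2 ratio averaged 0.88 ± 1.38 in siPRDX3 and 2.36 ± 2.79 in siCTL (SD, n = 3 each), a difference of -1.48 (two-sided exact permutation p = 0.5, adjusted p = 0.6 over 2 measures, where the smallest possible p is 0.1). A ratio within a library is free of the scaling between libraries, and its range of 5.57 on the log2 scale over the 6 libraries was set by siCTL 1. Without that library the difference was 0.14.

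Together the entries took 15537 of 644115 reads, which is 2.41%. Their joint share was 3.05%, 1.72% and 1.35% in siPRDX3 1, 2 and 3, against 5.56%, 1.66% and 1.85% in siCTL 1, 2 and 3. The highest value was again that of siCTL 1, and the other 5 libraries of both groups overlapped. The means were 2.04% ± 0.89 in siPRDX3 and 3.02% ± 2.20 in siCTL (SD, n = 3 each; two-sided exact permutation p = 0.6, adjusted p = 0.6), and without siCTL 1 the difference of -0.98 percentage points became 0.29. As a share of the reads other than miR-4451 the difference was -3.79 percentage points (two-sided exact permutation p = 0.4). By that measure siCTL 1 and siCTL 2 were the highest libraries and siCTL 3 the lowest.

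**Figure D3:**
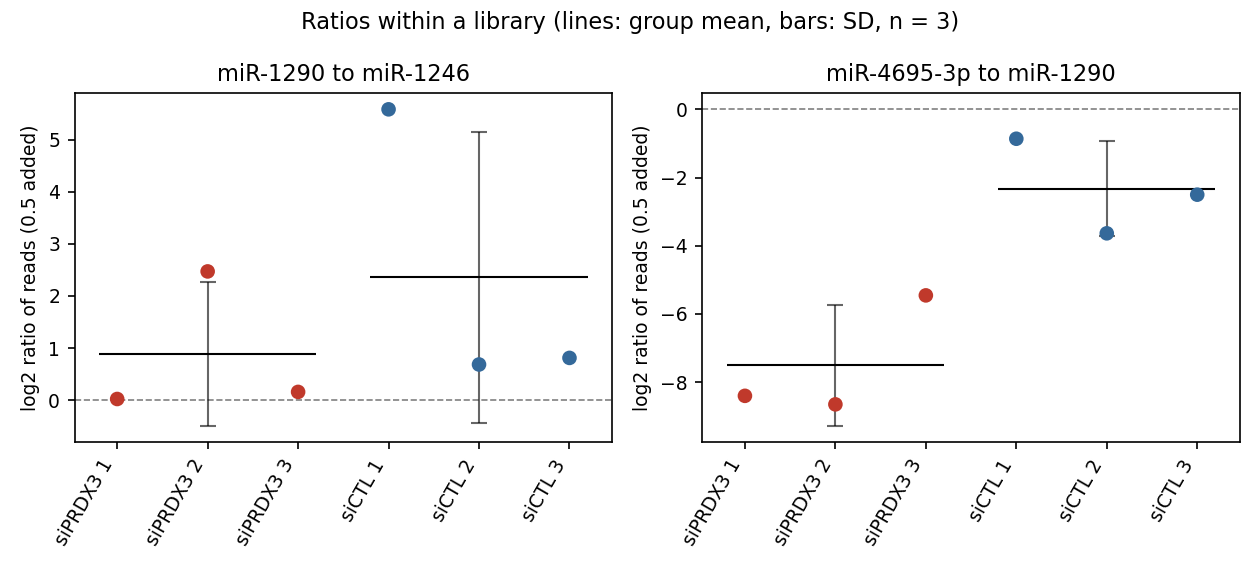
log2 ratios of reads within each library, with 0.5 read added, for miR-1290 to miR-1246 (left) and miR-4695-3p to miR-1290 (right); red points are siPRDX3 libraries, blue points siCTL libraries, horizontal lines group means and bars SD (n = 3). siCTL 1 stands apart at 5.59 for miR-1290 to miR-1246, and the ratio of miR-4695-3p to miR-1290 lies below -5 in all siPRDX3 libraries.

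miR-4695-3p was nearly missing from siPRDX3 exosomes. It had 10, 3 and 11 reads in siPRDX3 1, 2 and 3, against 1202, 66 and 259 in siCTL 1, 2 and 3. As shares these were 0.00433%, 0.00310% and 0.0156% in siPRDX3 and 2.99%, 0.0815% and 0.208% in siCTL. On both scales every siPRDX3 library lay below every siCTL library. The same held for 8.75% of the tested miRNAs on the authors' scale and 2.5% by share. Separations in the other direction are not in these percentages. The entry was chosen for this contrast, so nothing is read from its separation. The highest siPRDX3 share lay 5.24-fold below the lowest siCTL share. With the siPRDX3 counts so low, counting error was wide, and the 95% Clopper-Pearson interval of siPRDX3 2 ran from 0.000640% to 0.00907%.

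Most of the siCTL signal came from a single library. siCTL 1, the shallowest library, held 78.7% of all siCTL reads of miR-4695-3p, and the entry ranked 9 there, against 23 in siCTL 2 and 44 in siCTL 3. In siPRDX3 it ranked 147, 96 and 98. The log2 levels averaged 5.21 ± 0.91 in siPRDX3 and 12.09 ± 2.44 in siCTL (SD, n = 3 each), a log2 fold change of -6.87, the lowest of the 80 tested. It stayed between -7.73 and -5.47 over 15 other settings. Without siCTL 1 it was -5.47, and without siCTL 1 and siCTL 2 it was -5.80.

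miR-1290, from the same host gene, was set beside it within each library. The ratio of miR-4695-3p to miR-1290 reads was 0.00282, 0.00213 and 0.0218 in siPRDX3 1, 2 and 3, against 0.550, 0.0799 and 0.176 in siCTL 1, 2 and 3. All siPRDX3 ratios lay below all siCTL ratios, and the log2 ratio averaged -7.50 ± 1.78 in siPRDX3 and -2.33 ± 1.39 in siCTL (SD, n = 3 each). Since miR-4695-3p was chosen for its low siPRDX3 values, no test of this ratio is given. siCTL 1 was the highest library for both neighbours by share, and also the one with the fewest reads of miR-1246.

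miR-4695-5p, the other arm of the hairpin, was listed at 0 in every library. Its 0 of 644115 reads allow a share of up to 0.000466% over all libraries, and of up to 0.00747% in siCTL 1, where the 3p arm had 1202 reads. It was not tested and has no fold change. A silent arm was common at this depth. Of 101 miRNA names with both arms listed and at least 100 reads in all, 64 had 0 reads of the smaller arm (63.4%), and so had 11 of the 23 with at least as many reads as miR-4695.

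Because the miR-4695 hairpin nearly fills an intron, other hairpins of this geometry were counted, a comparison chosen after the values were seen. Of 1879 annotated miRNA hairpins, 33 lay with both ends within 10 bases of the exons on either side of an intron on the same strand. They gave 55 entries, of which 22 had reads. miR-4695-3p led these with 1551 reads and was the only one with enough reads to be tested. Next came miR-1224-5p, in an intron of VWA5B2, with 470, 5 and 0 reads in siPRDX3 1, 2 and 3 and 0, 0 and 22 in siCTL 1, 2 and 3. miR-6834-3p of PFDN6 and miR-6821-3p of PIM3 had 360 and 333 reads, all of them in siCTL 2. Without miR-4695-3p these entries took 0.21%, 0.0404% and 0.0325% of reads in siPRDX3 1, 2 and 3, and 0.0349%, 0.909% and 0.0353% in siCTL 1, 2 and 3. The groups overlapped, and the high values came from 1 library each for the entries named.

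Likeness of pattern was measured as the root-mean-square difference of centred log2 CPM over the 6 libraries, with no p, since such points share library and depth. For miR-1246 the nearest of the tested miRNAs were let-7i-5p (0.60), let-7f-5p (0.81) and miR-3960 (1.001), and miR-1290 ranked 22 at 1.95. let-7i-5p and let-7f-5p are let-7 miRNAs, which restrain growth genes in many tissues, and both were lowest in siCTL 1, with 3 and 181 reads. For miR-1290 the nearest were miR-148a-3p (0.61), miR-326 (0.75) and the erythroid miR-486-5p (0.88), while miR-1246 ranked 20. miR-486-5p had 1740, 1885 and 1040 reads in siPRDX3 1, 2 and 3 and 1750, 2262 and 3307 in siCTL 1, 2 and 3. For miR-4695-3p no entry was as close. The nearest were miR-6815-5p (2.43), miR-6894-5p (2.63) and miR-6794-3p (2.69), all with few reads, and miR-1290 ranked 7 at 2.94. miR-6815-5p had 0, 1 and 11 reads in siPRDX3 1, 2 and 3 and 22, 31 and 5 in siCTL 1, 2 and 3. None of these 3 hairpins fills an intron by the measure above. The median difference over all tested miRNAs was 3.19 from miR-1246, 3.75 from miR-1290 and 5.61 from miR-4695-3p.

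Spread over the libraries was below the median of the tested miRNAs for the U2-like entries, but this was not particular to them. The SD of log2 CPM over the 6 libraries was 1.30 for miR-1246 and 1.004 for miR-1290, against a median of 3.79 over the tested miRNAs, while miR-4695-3p, at 3.75, was close to that median. The 80 tested miRNAs include 30 with no read in siCTL 1 and 23 with none in siCTL 2. On the authors' scale the limma SE was 0.57 for let-7b-5p and 0.70 for let-7a-5p. It was 1.01 for miR-1290 and 1.37 for miR-1246, and most tested miRNAs had a larger SE.

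No other miRNA hairpin lay within 500 kb of that of miR-1290 than that of miR-4695. Around miR-1246 the same distance held the hairpins of miR-7704 and miR-10b in the HOXD cluster. miR-7704 had 6972, 2908 and 3402 reads in siPRDX3 1, 2 and 3 and 0, 442 and 10613 in siCTL 1, 2 and 3. miR-10b-5p had 730, 26 and 11 reads in siPRDX3 and 954, 0 and 955 in siCTL, and miR-10b-3p none.

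Entries that resemble other structured RNAs, such as tRNA, rRNA and snoRNA, were set beside the U2-like pair. Of 39 listed names, 37 were in the tables, 25 had reads and 7 were tested. By limma 0 of the 7 passed an adjusted p of 0.05, while limma-voom called miR-1260b. Some of the 7 reached the filter through their siPRDX3 reads alone, so no median or count of directions is given. The joint share of the 25 was 0.897%, 1.47% and 1.38% in siPRDX3 1, 2 and 3, and 0.0424%, 0.0284% and 1.93% in siCTL 1, 2 and 3. The share was low in siCTL 1 and siCTL 2 and highest in siCTL 3, so the groups overlapped. The 5 entries with the most reads differed among themselves in where their reads lay. miR-4508 had 11, 330 and 37 reads in siPRDX3 and 0, 2 and 1767 in siCTL. miR-4516 had 861, 385 and 140 reads in siPRDX3 and 2, 3 and 196 in siCTL. In both the siCTL reads came almost wholly from siCTL 3. miR-1260b, which resembles a leucine tRNA, had 777, 330 and 204 reads in siPRDX3 and 0, 0 and 5 in siCTL. miR-1260a had 121, 341 and 217 reads in siPRDX3 and 0, 0 and 4 in siCTL. miR-1260b and miR-1260a passed the filter through their siPRDX3 reads alone, so nothing is read from the separation of their groups. For miR-6087 the groups overlapped, with 218, 0 and 107 reads in siPRDX3 and 0, 0 and 155 in siCTL. These 5 entries had at most 3 reads each in siCTL 1 and siCTL 2. There miR-1290 had 2186 and 826 reads, and miR-1246 had 45 and 514.

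**Figure D4:**
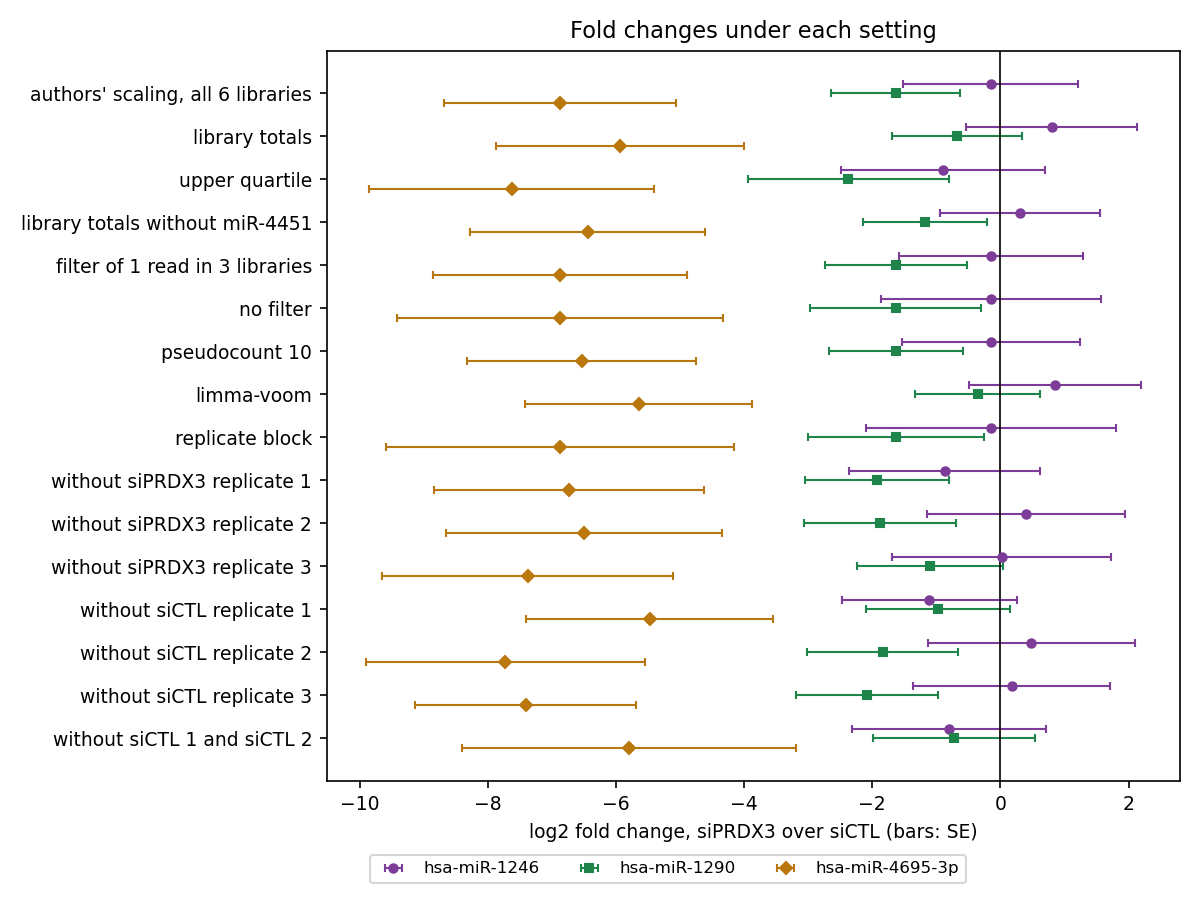
log2 fold change, siPRDX3 over siCTL, with SE bars, for miR-1246 (circles), miR-1290 (squares) and miR-4695-3p (diamonds) under the authors' scaling and 15 other settings. Values of miR-1246 lie on both sides of 0, those of miR-1290 run from -2.37 to -0.35, and those of miR-4695-3p from -7.73 to -5.47.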

How the data were processed

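Small-RNA libraries of exosomal RNA were built with the NEBNext kit, per the labels' protocols. The authors deposited 1 table of log2 values per library. Bowtie2 and bedtools 2.25.0 are listed, without their roles, per the submitters' processing notes; for genome build, annotation, read filters, scaling and multiply mapped reads the entry is: not given in the sources used here. Within each library 2 to the power of the value, minus 1, lay on whole multiples of 1 step (100% of values up to 100 reads within 0.1 read). The rounding of the deposited values leaves an error of at most 1.23 reads in any recovered read number of the members. Tested miRNAs had 113 CPM or more, the worth of 10 reads in a library of median size, in 3 or more libraries, and 15 reads or more in all. The deposited log2 values entered limma 3.58.1 (R 4.3.3), fitted with a trend in the variance, two-sided, with Benjamini-Hochberg adjustment at 0.05; a positive fold change means higher in siPRDX3, on a scale with 1 added before the log. The fit was tested on simulated data with normal noise of a smaller spread than the members have. That test therefore does not show how the fit performs on these libraries. Ratios and shares were compared by exact permutation (SciPy 1.17.1). Intervals and the limits for 0 counts (3 reads) cover counting error only, as PCR copies were not marked by molecular identifiers. Alternatives covered scaling, filter, pseudocount, limma-voom, replicate block and single libraries; leaving out siCTL 1 and siCTL 2 together was added after seeing the data. Named miRNAs were the 4 members, the 3 tested miRNAs nearest to each by pattern, seed sharers, hairpins within 500 kb and the 5 most read of a list of RNA-like entries. Members, lists and rules were chosen with earlier results of these data known. Hairpin and transcript positions are from GENCODE 29, folding from RNAfold 2.7.2.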

Additional observations from a re-analysis of the deposited data

How the results depend on the processing

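The log2 fold change of miR-1246 changed sign under library totals (0.80), library totals without miR-4451 (0.30) and limma-voom (0.85), and when siPRDX3 2 (0.40), siPRDX3 3 (0.02), siCTL 2 (0.48) or siCTL 3 (0.17) was left out. Leaving out single libraries gave -1.11 to 0.48. miR-1290 kept its direction in all 15 settings (-2.37 to -0.35, and -2.08 to -0.97 with single libraries left out). So did miR-4695-3p (-7.73 to -5.47, both ends from single libraries left out). Fold changes with libraries left out were fitted on the authors' scale only. By share of reads, miR-1290 in siCTL 2 (1.02%) and siCTL 3 (1.18%) lay within the siPRDX3 range (0.713% to 1.54%). The count past the threshold was 1 in limma-voom and 0 to 20 with single libraries left out, the 20 without siCTL 3; elsewhere it was 0. The difference in the log2 ratio of miR-1290 to miR-1246 ran from -2.32 to 0.14 with single libraries left out and was 0.073 without siCTL 1 and siCTL 2. That in the joint share ran from -1.66 to 0.29 percentage points with single libraries left out, was 0.19 without siCTL 1 and siCTL 2, and was -3.79 as a share of the reads left without miR-4451. The causes were not tested. With siCTL 3 as the lone siCTL library, it is assumed to vary like the siPRDX3 libraries. With the replicate number as a block the count was 0 and the fold changes were unaltered at -0.15, -1.63 and -6.87; deviations of same-numbered libraries correlated at -0.24, 0.18 and 0.14, so the numbers were not taken to pair libraries. miR-4695-5p has no fold change in any setting.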
